A study of Homo sapiens with 647 samples.

Results

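The fulvestrant response of T47D cells that carry FGFR2 N550K was read from 12 RNA sequencing libraries, chosen by their titles: 6 treated with fulvestrant alone and 6 treated with DMSO. They are 12 of the 95 libraries of this line and of the 647 libraries in the series. T47D is a luminal, estrogen receptor positive breast cancer cell line. Cells were infected with lentivirus to express a gene, plated in multiwell plates for 48 h and treated for 24 h, and RNA was made into libraries by SMART-Seq2, a full-length method for small inputs. Fulvestrant and the FGFR inhibitor FIIN-3 were used at 100 nM. For the ligand FGF2 the labels state no dose.

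Further groups of 6 libraries each were set beside these. In the N550K line they were fulvestrant with FIIN-3 and FIIN-3 alone, where the 6 FIIN-3 libraries with title numbers next to the combination were taken, and fulvestrant with FGF2 and FGF2 alone. In other lines they were fulvestrant and DMSO libraries of FGFR2 K660N, wild-type FGFR2, GFP and the parental line; GFP and parental cells are called the control lines. N550K and K660N are substitutions in the kinase domain of the receptor. The sources used here did not say whether a line was a single clone or a pool, nor whether the libraries of a group came from separate cultures, so p-values measure only the spread between these libraries, which may be technical.

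Fulvestrant is a pure antiestrogen: it binds estrogen receptor alpha, encoded by ESR1, blocks its transcriptional activity and marks the protein for degradation. Estrogen-bound receptor switches on genes of secretion and growth such as GREB1, PGR, CXCL12 and MYC, and its loss releases a set of genes it holds down. FGFR2 is a receptor tyrosine kinase that signals through RAS and MAP kinase, and activating FGFR alterations are known from tumours that resist antiestrogens.

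Depth was similar in the 12 libraries, with 6863611 to 9880400 counts and 17312 to 20410 genes detected each. All 12 had KRT18 and GATA3, markers of a luminal line. KRT18, a luminal keratin, was at 7290 to 9557 TPM (a level per transcript length) with fulvestrant and at 5212 to 10778 TPM with DMSO. GATA3, a luminal transcription factor, was at 221.4 to 389 TPM with fulvestrant and at 158.7 to 298.9 TPM with DMSO. TFF1, also taken as a luminal marker, was low, at 0 to 10.07 CPM (counts scaled to library size, median 0.738) over the 12. The 12 listed markers of blood, endothelial and stromal cells summed to 4.2 to 14.9 TPM in fulvestrant libraries and to 1.99 to 13.8 TPM in DMSO libraries. PTPRC and CD3E were at 0 in all 12. In bulk RNA, fewer cells of a type and less RNA per cell cannot be told apart.

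FGFR2 was at 41.8 to 539 CPM (counts scaled to library size; median 461) in fulvestrant libraries and at 41.1 to 395 CPM (median 311.2) in DMSO libraries, against 5.92 to 28.2 CPM in the 24 control-line libraries. These counts do not separate vector from endogenous FGFR2 and do not show the substitution. Fulvestrant did not change FGFR2 past the threshold (log2 fold change 0.60 ± 0.58, SE, edgeR adjusted p = 0.845).

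Of the 12 libraries, 3 stood apart and go against their label in part. Fulvestrant replicate 3 and DMSO replicates 3 and 4 had only 1.59%, 1.32% and 1.09% of their counts in MT-RNR2, the mitochondrial large ribosomal RNA, against 12.7% to 24.6% in the other 9. MT-CO2, a mitochondrial mRNA, was at 63290 CPM in that fulvestrant library and at 62960 and 88510 CPM in those DMSO libraries, while the other fulvestrant libraries had 5742 to 6631 CPM and the other DMSO libraries 6315 to 8216 CPM. FGFR2 was at 41.8 CPM in that fulvestrant library and at 70.2 and 41.1 CPM in those DMSO libraries, still above every control-line library but below the 247.7 to 539 CPM of the other 9. IFI27, an interferon-induced gene picked after its values were seen, was at 185.6 to 473 CPM in these 3 libraries, at 23.8 to 66.3 CPM in the other 9, and at 0.973 CPM or less in the control lines. Wild-type FGFR2 fulvestrant replicate 3 and DMSO replicates 3 and 4 had low MT-RNR2 as well, with FGFR2 at 54.99 CPM with fulvestrant and at 84.2 and 44.1 CPM with DMSO, against 123.3 CPM or more in the other 9 libraries of that line. Of the 84 libraries used here 7 had MT-RNR2 under 5 percent, these 6 and 1 GFP library with DMSO, and all 7 fall in the same of 3 runs of title numbers, which also holds fulvestrant replicate 4 of the N550K line at 16.6%. Whether they were swapped, mixed or prepared differently was not tested. Results are therefore given for all 12 libraries and for the 9 libraries left without these 3, which are 5 with fulvestrant and 4 with DMSO.

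**Figure D1:**
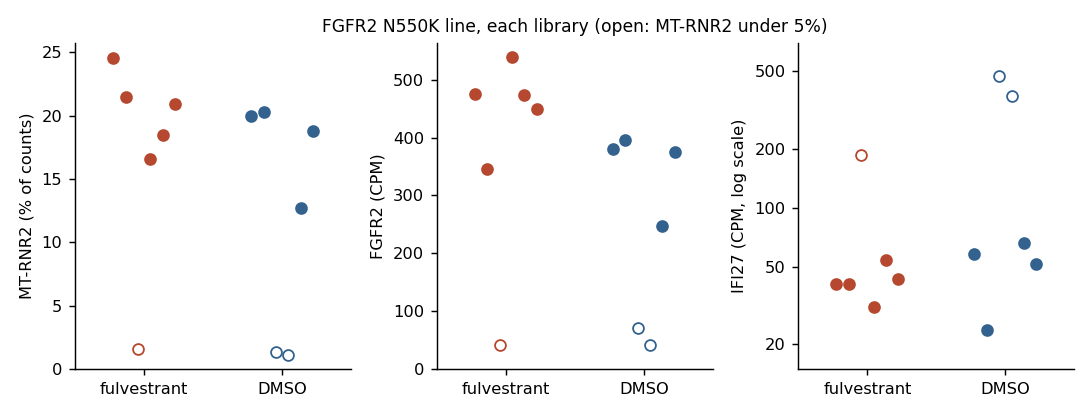
MT-RNR2 share of counts (percent), FGFR2 and IFI27 (CPM, IFI27 on a log axis) in each fulvestrant and DMSO library of the FGFR2 N550K line; each point is 1 library and open points are the 3 libraries with MT-RNR2 under 5 percent. The open points lie below all others for MT-RNR2 and FGFR2 and above all others for IFI27.

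The question of the main comparison is which genes an antiestrogen still changes in cells that carry a mutant FGF receptor. Over all 12 libraries 1 gene fell, CXCL12, and none rose. CXCL12, a chemokine that is a classical estrogen-induced gene, was at 3.10 to 7.85 CPM (median 5.45) with fulvestrant and at 10.3 to 37.3 CPM (median 21.9) with DMSO, so the groups did not overlap. This is a 4.21-fold lower level (log2 fold change -2.07 ± 0.27, adjusted p = 0.0414, edgeR quasi-likelihood test). That 1 gene is 0.00793% of the 12618 tested; 2.61% of the genes had an unadjusted p under 0.05, which was 8.16% with pairs of neighbouring title numbers as a block and 21.8% without fulvestrant replicate 3. The call was lost in 11 of the 12 fits that left out 1 library, and it held, with 2 further genes, without DMSO replicate 3 (-2.21 ± 0.24, adjusted p = 0.00763). DESeq2 called 12 genes, 1 higher and 11 lower, and limma on the log2(TPM + 1) values called 0.

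Without the 3 libraries of low MT-RNR2, 25 of 12985 genes fell (0.193%) and 2 rose (0.0154%), while 1563, or 12%, had an unadjusted p under 0.05. The genes that fell included CXCL12, STC2, MYC, SERPINA6, GREB1, OLFM1 and SUSD3, all from a list of estrogen-induced genes, and IGFBP5, CISH and PPM1K. All 25 were below 0, and both that rose above 0, over all 12 libraries, but these include the 9 in which the genes were called. With the block, 72 genes passed in the 9 libraries, 23 higher and 49 lower, and they included all 27. In these 9 the block of fulvestrant replicate 4 holds no DMSO library, so that library does not enter the blocked estimate. Leaving out each of the 9 in turn gave calls for 0.114% of genes (15, without DMSO replicate 5) to 1.18% (without DMSO replicate 2, all 27 among them), and for 0.356% (46) without fulvestrant replicate 4, against 0.208% (27). In all 9 of these fits 14 of the 27 passed: CXCL12, STC2, MYC, SERPINA6, GREB1, SUSD3, IGFBP5, CISH, PPM1K, FGD3, C5AR2, CYP2T1P, SNHG15 and CRISPLD1.

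In the 5 fulvestrant libraries CXCL12 was at 6.26, 4.72, 7.85, 6.18 and 4.40 CPM, against 23.4, 26.2, 20.5 and 37.3 CPM in the 4 DMSO libraries (-2.20 ± 0.20, adjusted p = 8.43e-07). The groups did not overlap, and the 3 libraries set aside, at 3.10 CPM with fulvestrant and at 10.3 and 15.9 CPM with DMSO, were in the same order at lower levels. STC2, a secreted glycoprotein hormone, was at 226.3, 227.4, 268.6, 220.9 and 214.5 CPM with fulvestrant and at 580, 616, 789 and 746 CPM with DMSO. This 2.97-fold lower level had the smallest adjusted p of the 9 libraries (-1.57 ± 0.11, edgeR adjusted p = 7.1e-09). Over all 12 libraries STC2 did not pass (edgeR adjusted p = 0.279), though the groups did not overlap. Most genes named here were picked by their p in these 9 libraries, and the share of all genes without overlap is not given. Lack of overlap is thus no support beyond the p-values, here and for the other genes named.

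SERPINA6, the corticosteroid-binding globulin, was at 46.7, 47.9, 58.1, 50.97 and 35 CPM with fulvestrant and at 106.7, 99.3, 203.4 and 230 CPM with DMSO (-1.75 ± 0.19, adjusted p = 1.05e-05). The libraries set aside were higher, at 117.8 CPM with fulvestrant and at 290 and 182.3 CPM with DMSO, and that fulvestrant value lies within the DMSO range. IGFBP5, which binds insulin-like growth factors, was at 42.6 to 56.2 CPM with fulvestrant and at 89.4 to 137.3 CPM with DMSO (-1.20 ± 0.13, adjusted p = 1.05e-05). OLFM1, a secreted olfactomedin glycoprotein, was at 9.02, 9.18, 8.21, 13.97 and 13.5 CPM with fulvestrant and at 17.2, 21.3, 29.2 and 27.6 CPM with DMSO (-1.15 ± 0.20, adjusted p = 0.00507). The groups did not overlap, and the highest values, 41.9 and 34.8 CPM, came from the DMSO libraries set aside, against 8.36 CPM in the fulvestrant library set aside. The call of OLFM1 was lost without DMSO replicate 5 (-1.03 ± 0.21, adjusted p = 0.0832), and the interactions given for it below were not refitted without that library.

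Among regulators of transcription and signalling, MYC, the growth-promoting transcription factor, was at 3.51, 7.08, 5.55, 7.04 and 6.10 CPM with fulvestrant and at 21.1, 21.5, 17.2 and 25.6 CPM with DMSO. That is 5.86 ± 1.46 CPM and 21.4 ± 3.42 CPM (SD, n = 5 and n = 4; -1.87 ± 0.20, edgeR adjusted p = 9.48e-06). The DMSO libraries set aside, at 5.16 and 8.39 CPM, lay in or near the fulvestrant range, so the groups overlapped over 12 libraries (-1.68 ± 0.35, adjusted p = 0.574). GREB1, an estrogen-induced cofactor of the receptor, was at 31.2, 25.4, 19.3, 22.4 and 23.2 CPM with fulvestrant and at 47.5, 53.5, 35.8 and 57.6 CPM with DMSO (-1.01 ± 0.16, adjusted p = 0.00155). In the libraries set aside it did not follow treatment, with 13.6 CPM in the fulvestrant library and 11.97 and 16.8 CPM in the DMSO libraries. CISH, a SOCS-family inhibitor of cytokine signalling, was at 12.4 to 16.7 CPM with fulvestrant and at 23.8 to 42.6 CPM with DMSO (-1.16 ± 0.16, adjusted p = 0.000553).

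PPM1K, the mitochondrial phosphatase that activates branched-chain amino acid breakdown, fell as well. It was at 11.8, 9.70, 9.90, 11.4 and 10.2 CPM with fulvestrant and at 20.5, 23.8, 21.96 and 22.8 CPM with DMSO (-1.08 ± 0.16, adjusted p = 0.000708). Over all 12 libraries PPM1K did not pass (-0.97 ± 0.15, edgeR adjusted p = 0.121). The groups did not overlap there, which is no separate support, since the gene was picked in 9 of these libraries. SUSD3, a cell surface protein with a sushi domain, was read at few counts, 0.724 to 2.99 CPM with fulvestrant and 4.52 to 10.95 CPM with DMSO (-2.26 ± 0.37, adjusted p = 0.00319).

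The other genes that fell had smaller changes or fewer counts. AMZ1, a metalloprotease, was at 10.1 ± 4.10 CPM with fulvestrant and at 24.1 ± 7.17 CPM with DMSO, with overlapping groups (SD, n = 5 and n = 4; -1.26 ± 0.25, edgeR adjusted p = 0.022). NPM3, a nucleophosmin family chaperone (-1.14 ± 0.22), FKBP10, a collagen chaperone (-0.90 ± 0.16), and TMED9, a carrier of cargo between endoplasmic reticulum and Golgi (-0.84 ± 0.17), fell as well, TMED9 with overlapping groups. So did the transcripts LINC00992 (-1.02 ± 0.18) and SNHG15 (-0.93 ± 0.14), C5AR2, a complement receptor (-1.02 ± 0.18), CARD19 (-1.02 ± 0.22), OLFML3 (-0.80 ± 0.16), RPL36A (-0.58 ± 0.12) and the pseudogene CYP2T1P (-1.48 ± 0.23). NPM3, TMED9, LINC00992, SNHG15, CARD19 and RPL36A moved with MT-RNR2 too. NPM3 was at 198.9 CPM in the fulvestrant library set aside and at 239.4 and 269.4 CPM in those with DMSO, while the other fulvestrant libraries had 13.9 to 28.98 CPM and the other DMSO libraries 33.7 to 70.7 CPM. All 6 genes were highest among the 9 in DMSO replicate 5, which had the lowest MT-RNR2 of them, 12.7%. Without that library NPM3, TMED9, LINC00992, CARD19 and RPL36A did not pass, nor did FKBP10, AMZ1 and OLFML3. The part of the MT-RNR2 share in these calls was not tested otherwise. RPL36A, a ribosomal protein gene, has near-identical copies between which reads may be split. FGD3 (-1.67 ± 0.24), EGLN2 (-0.55 ± 0.11) and 2 clone-named transcripts read at few counts (-3.03 ± 0.57 and -1.93 ± 0.39) complete the 25; these 4 fell outside the rule for named genes.

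CRISPLD1, a secreted protein of the CAP domain family, rose. It was at 22.2, 17.2, 26.1, 19.5 and 16.6 CPM with fulvestrant and at 10.4, 10.3, 9.05 and 9.86 CPM with DMSO (1.02 ± 0.18, adjusted p = 0.00507). The libraries set aside had the lowest values, 6.35 CPM with fulvestrant and 1.44 and 2.73 CPM with DMSO. SNPH, which anchors mitochondria in axons and was outside the rule, was at 7.40 to 8.39 CPM with fulvestrant and at 2.64 to 3.83 CPM with DMSO (1.25 ± 0.24, adjusted p = 0.016).

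**Figure D2:**
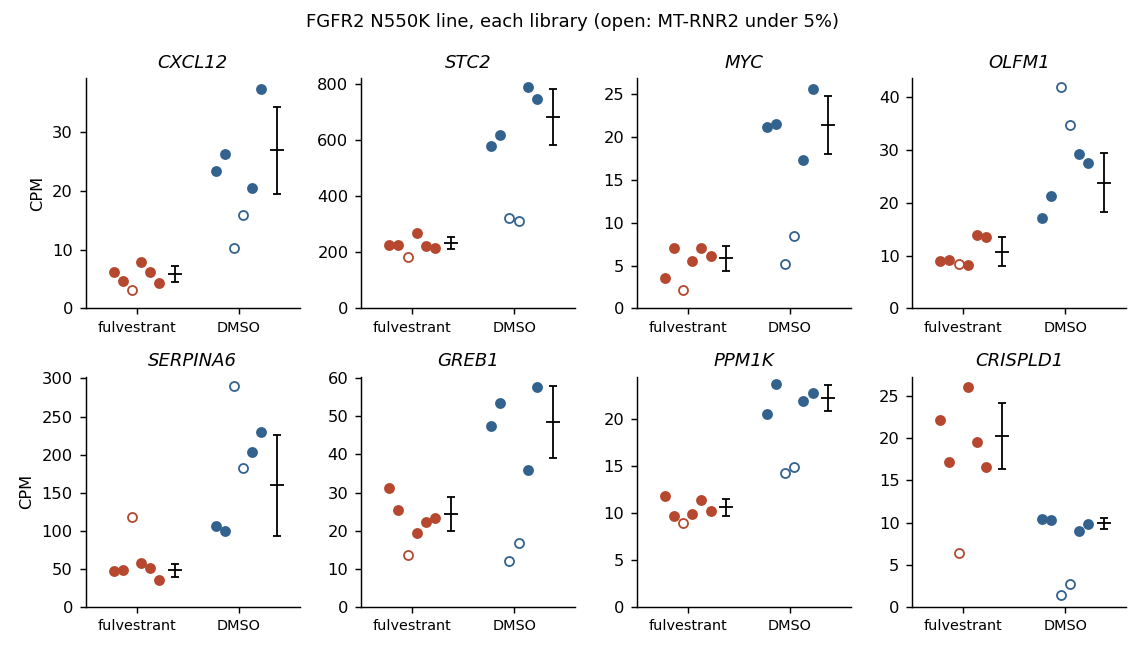
Level (CPM) of 8 genes in each fulvestrant and DMSO library of the FGFR2 N550K line; each point is 1 library, open points are the 3 with MT-RNR2 under 5 percent, and bars give mean and SD of the other 9. CXCL12, STC2, OLFM1 and PPM1K do not overlap between the treatments in any of the 12 libraries, whereas MYC, SERPINA6, GREB1 and CRISPLD1 are separate only among the filled points. The 8 genes were taken from those called in the 9 libraries, so their separation is no further result.

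Levels per length show how unequal these genes are as transcripts. Over all libraries STC2 had a median of 81.04 TPM with fulvestrant and 221.8 TPM with DMSO, and SERPINA6 had 60.4 TPM with fulvestrant and 151.1 TPM with DMSO. CXCL12 had 2.09 TPM with fulvestrant and 8.29 TPM with DMSO. ESR1 was at 4.27 TPM with fulvestrant and at 4.32 TPM with DMSO, and the progesterone receptor gene PGR at 2.67 TPM with fulvestrant and at 3.79 TPM with DMSO.

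The receptor transcript itself did not pass. ESR1 was at 13 to 29.5 CPM (median 25.8) with fulvestrant and at 14.9 to 37.3 CPM (median 27.2) with DMSO, and the groups overlapped (-0.19 ± 0.22, adjusted p = 0.845; 9 libraries -0.28 ± 0.15, adjusted p = 0.452). PGR, a standard marker of estrogen receptor activity named here after its values were seen, did not pass in the 9 libraries either (-0.72 ± 0.19, adjusted p = 0.116). It was at 24.8, 12.7, 15.9, 16.8 and 13.8 CPM with fulvestrant and at 19.9, 32.1, 25.8 and 31.97 CPM with DMSO. FGFR1 was at 5.77 to 8.96 CPM with fulvestrant and at 3.99 to 11.1 CPM with DMSO (-0.01 ± 0.22, adjusted p = 0.995).

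Promoters of genes that fell are shown because the receptor is known to bind GGTCANNNTGACC, the estrogen response element, in which the letters GGTCA recur on opposite strands. The 250 bases before the annotated start were taken from RefSeq on GRCh38.p14, and capitals mark GGTCA on the printed strand.
CXCL12, chr10:44385098-44385347, minus strand: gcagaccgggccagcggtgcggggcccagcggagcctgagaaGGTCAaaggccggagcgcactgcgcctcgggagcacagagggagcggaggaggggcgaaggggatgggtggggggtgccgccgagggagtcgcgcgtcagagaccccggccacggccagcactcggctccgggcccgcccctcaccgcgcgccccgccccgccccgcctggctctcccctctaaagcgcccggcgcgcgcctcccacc
PPM1K, chr4:88284562-88284811, minus strand: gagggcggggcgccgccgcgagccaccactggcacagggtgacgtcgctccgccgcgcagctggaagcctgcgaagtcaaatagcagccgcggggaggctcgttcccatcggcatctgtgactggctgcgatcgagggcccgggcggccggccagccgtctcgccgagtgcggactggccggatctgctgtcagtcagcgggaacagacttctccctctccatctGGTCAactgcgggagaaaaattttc
SERPINA6, chr14:94323337-94323586, minus strand: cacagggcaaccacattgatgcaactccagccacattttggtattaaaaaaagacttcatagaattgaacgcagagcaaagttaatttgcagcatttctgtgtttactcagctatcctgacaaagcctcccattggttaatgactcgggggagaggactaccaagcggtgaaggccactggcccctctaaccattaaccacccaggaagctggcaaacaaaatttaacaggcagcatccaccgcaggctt
CXCL12 and PPM1K have 1 GGTCA each, in PPM1K with its first base 25 bases before the start, and SERPINA6 has none on either strand. Of the genes that fell, 17 matched the promoter table, with 25 promoters. GGTCA on either strand was in 9 of these 25 (36%), against 32.6% of all 35116 promoters of the same length, and GGTCANNNTGACC was in 0 of 25, against 0.0399% of all.

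Of the 40 estrogen-induced genes listed, 33 were tested and 7 fell in the 9 libraries, CXCL12, STC2, MYC, SERPINA6, GREB1, SUSD3 and OLFM1, beside 0.193% of all genes. Their median log2 fold change was -0.35, with 28 of 33 below 0, and the median of all genes was 0.008. Over all 12 libraries 1 of 33 fell, with a median of -0.29 and 27 below 0. RAPGEFL1 (-1.12 ± 0.25, adjusted p = 0.0616) came next, and SIAH2, a ubiquitin ligase, was at 8.92 to 10.6 CPM with fulvestrant and at 12.3 to 17.6 CPM with DMSO without passing (-0.61 ± 0.18, adjusted p = 0.154). The list was drawn up with earlier results of these data known.

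None of the 14 tested of 16 genes known to be raised by loss of estrogen receptor activity passed in the 9 or the 12 libraries without the block, although 13 were above 0 in both the 9 and the 12 libraries (median 0.30 in the 9). FBXO32, a ubiquitin ligase subunit, was at 49.3 to 64.7 CPM with fulvestrant and at 34.9 to 41.5 CPM with DMSO and came nearest (0.59 ± 0.13, adjusted p = 0.0555). With the block, where fulvestrant replicate 4 does not enter the estimate, FBXO32 passed (0.64 ± 0.13, adjusted p = 0.0135), and all 14 were above 0. ERBB2, the HER receptor kinase gene, was at 98.3 to 124.4 CPM with fulvestrant and at 67 to 96.2 CPM with DMSO (0.45 ± 0.12, adjusted p = 0.127). TXNIP, a thioredoxin inhibitor, was at 125.6 to 154.8 CPM with fulvestrant and at 90.4 to 111.7 CPM with DMSO (0.40 ± 0.11, adjusted p = 0.133). The groups of these 3 genes did not overlap in the 9 libraries, but the share of all tested genes without overlap is not given here. Their lack of overlap is thus no result about the list.

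No gene of the FGF pathway lists passed the threshold. None of the 19 tested genes of FGF receptors, ligands and adaptors passed (median 0.12 in the 9 libraries), and none of the 25 tested genes of MAP kinase output and feedback (median -0.03). Since only 0.208% of all genes passed in the 9 libraries, no call in a list of this size is no result about the list. The same holds for the other lists without a call. DUSP6, a phosphatase that MAP kinase induces against itself, was at 50.5, 64, 50.5, 54.5 and 54.2 CPM with fulvestrant and at 59.9, 63.2, 52.6 and 45.9 CPM with DMSO (-0.03 ± 0.13, adjusted p = 0.952). These levels overlap, and they lie far above those of the control lines. There the median of 6 libraries with fulvestrant was 2.41 CPM in GFP and 2.84 CPM in parental cells. With DMSO it was 2.38 CPM in GFP and 1.85 CPM in parental cells. That difference between lines was not tested, and DUSP6 levels of the other FGFR2 lines are not given here. DUSP6 was named after its values were seen.

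Cell cycle genes did not pass either, again beside only 0.208% of all genes. Of 30 genes of G1/S and DNA replication the median was 0.04 in the 9 libraries with 12 below 0, and of 28 genes of G2/M and mitosis it was 0.08 with 10 below 0. DTL, of the G1/S and DNA replication list (0.37 ± 0.12, adjusted p = 0.21), and HMMR, a spindle protein (0.50 ± 0.15, adjusted p = 0.169), were the named members with the smallest p. MKI67, the usual proliferation marker, was at 77.4 to 101.1 CPM with fulvestrant and at 65.9 to 110 CPM with DMSO (-0.01 ± 0.14, adjusted p = 0.984), and CCND1, cyclin D1, at 106.5 to 169.3 CPM with fulvestrant and at 158.4 to 177.7 CPM with DMSO (-0.17 ± 0.12, adjusted p = 0.59). None of 12 tested D-type cyclins and CDK inhibitors passed.

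Ribosome biogenesis genes, many of which MYC is known to induce, lay below 0 in 18 of 20 in the 9 libraries with a median of -0.25, and none passed. DKC1, which modifies ribosomal RNA, had the smallest p (-0.45 ± 0.12, adjusted p = 0.104), then NOP56 (-0.42 ± 0.12, adjusted p = 0.135). Of 16 genes of cholesterol and fatty acid synthesis 12 were above 0 (median 0.18), with SREBF1, a lipid synthesis regulator, at 0.78 ± 0.25 (adjusted p = 0.191). With the block, again without a part for fulvestrant replicate 4, SREBF1 passed (0.96 ± 0.17, adjusted p = 0.00299). The median was then 0.09 with 10 of 16 above 0. No member passed among the 19 tested interferon response genes (median -0.11), the 15 genes of the ATF4 and unfolded protein response (-0.08) or the 10 tested BCL2 family genes (0.03). Nor did any among the 23 receptor coregulators and luminal factors (0.06) and the 6 tested basal and mesenchymal genes (0.04). None of the 15 mitochondrial transcripts passed (-0.02), but the 9 libraries were chosen by the share of MT-RNR2, itself a mitochondrial transcript. That value is thus no result about mitochondrial transcripts. Over all 12 libraries their median was -0.27, with 12 below 0 and 0 past the threshold. Interferon genes moved with the libraries set aside: ISG15 was at 26.2 CPM in that fulvestrant library and at 201.6 and 58.3 CPM in those DMSO libraries, while the other fulvestrant libraries had 5.6 to 24.8 CPM and the other DMSO libraries 7.89 to 25.8 CPM. Their part in the results over 12 libraries was not tested beyond leaving them out.

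**Figure D3:**
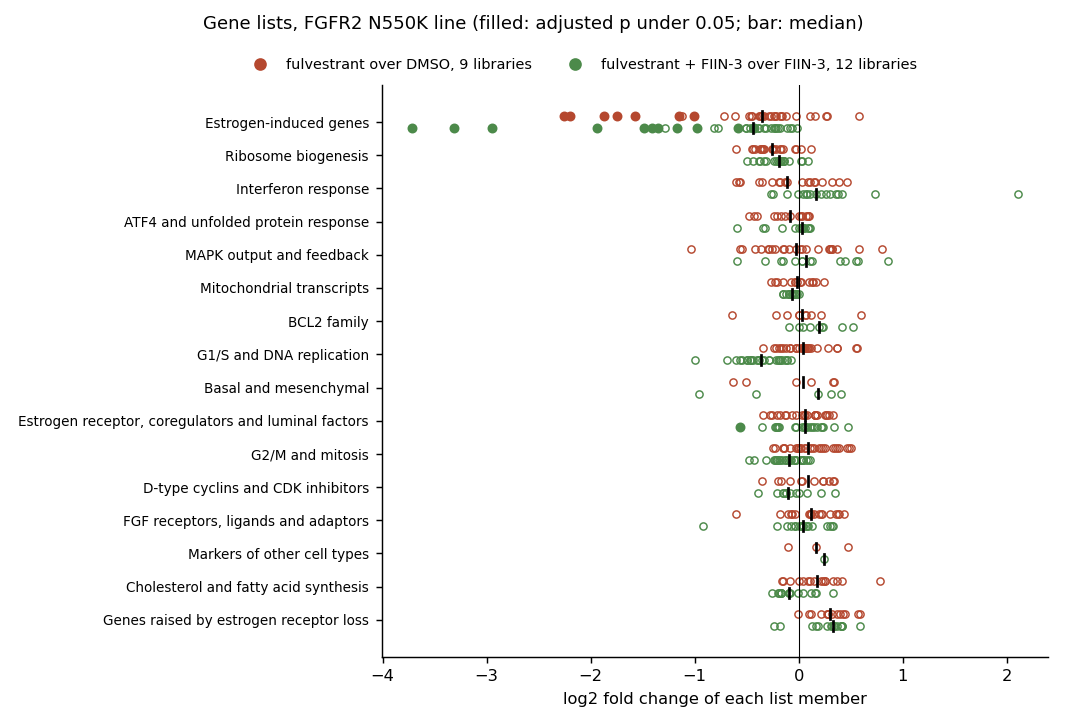
Log2 fold change of each tested member of 16 gene lists, for fulvestrant over DMSO in the 9 libraries and for fulvestrant with FIIN-3 over FIIN-3 in 12 other libraries; filled points have adjusted p under 0.05 and bars are medians. Filled points lie among the estrogen-induced genes, with 1 more, ESR1, in the second comparison, and all 28 genes of G1/S and DNA replication are left of 0 with FIIN-3.

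The same drug was then read in N550K libraries that the main comparison does not use. With FIIN-3 present, which blocks the kinase of FGF receptors, 57 of 12379 genes fell with fulvestrant (0.46%) and 2 rose (0.0162%), together 0.477%. The FIIN-3 replicate 1 library held only 512961 counts; without it 61 genes passed, 58 of them among the 59. CXCL12 was at 2.47 to 5.65 CPM (median 3.40) with fulvestrant and FIIN-3 and at 41.05 to 67.7 CPM (median 48.2) with FIIN-3 alone, a 13.2-fold lower level (-3.72 ± 0.19, adjusted p = 2.39e-14). OLFM1 was at 2.42 to 4.12 CPM (median 3.25) with fulvestrant and FIIN-3 and at 18.8 to 38.2 CPM (median 25.7) with FIIN-3 alone (-2.95 ± 0.22, adjusted p = 9.79e-11). Neither gene overlapped between these groups.

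PGR and ESR1 fell in this comparison. PGR was at 11.55 to 20 CPM with fulvestrant and FIIN-3 and at 34.7 to 53.8 CPM with FIIN-3 alone (-1.35 ± 0.15, adjusted p = 3.86e-07). ESR1 was at 29.9 to 48.4 CPM with both and at 50.2 to 64.2 CPM with FIIN-3 alone (-0.56 ± 0.13, adjusted p = 0.0369). WDHD1, a DNA replication protein, fell as well (-1.20 ± 0.26, adjusted p = 0.0205), and DHRS3, a retinal reductase, rose (0.57 ± 0.12, adjusted p = 0.0199).

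Of the 25 genes that fell in the 9 libraries, 24 were tested beside FIIN-3, all 24 were below 0 and 19 passed. These 19 are 76% of the 25 and 33.3% of the 57. FKBP10, NPM3, RPL36A and TMED9 passed in none of the other comparisons of fulvestrant named here. TMED9, for one, was at 277.8 to 386 CPM with fulvestrant and FIIN-3 and at 273.1 to 532 CPM with FIIN-3 alone (-0.14 ± 0.13, adjusted p = 1).

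Of 33 estrogen-induced genes tested, 11 fell, beside 0.46% of all genes, and all 33 were below 0 (median -0.44). Counts of calls depend on the number of libraries, which differs from that of the main comparison, so they show no difference in response. All 28 tested genes of G1/S and DNA replication were below 0 (median -0.36) and none passed, and DUSP6 was at 0.951 to 4.38 CPM with fulvestrant and FIIN-3 and at 1.03 to 3.47 CPM with FIIN-3 alone.

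With FGF2 added, 4 of 12457 genes fell with fulvestrant (0.0321%) and none rose. They were SERPINA6 (-1.67 ± 0.16, adjusted p = 7.58e-05), STC2 (-0.88 ± 0.12, adjusted p = 0.00576), IGFBP5 (-1.0 ± 0.15, adjusted p = 0.0155) and CXCL12 (-2.11 ± 0.34, adjusted p = 0.0301). STC2 was at 338.9 to 485 CPM (median 401) with fulvestrant and FGF2 and at 630 to 865 CPM (median 762) with FGF2 alone, without overlap. All 4 are among the 25 genes that fell in the 9 libraries, which is 16% of the 25, and all 25 were below 0. DUSP6 had a median of 139.8 CPM with fulvestrant and FGF2 and of 135.8 CPM with FGF2 alone. No filter on low counts gave 28 genes, DESeq2 13, the block 8 and limma 2.

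**Figure D4:**
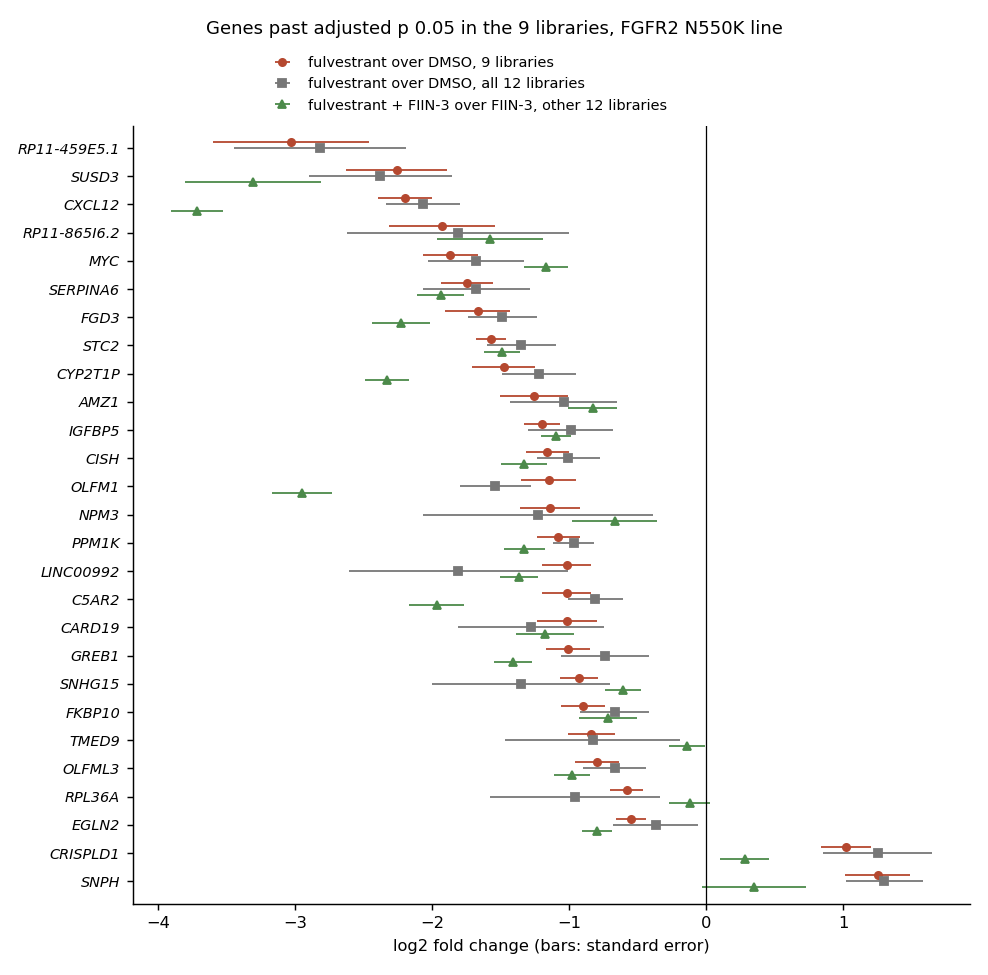
Log2 fold changes with SE of the 27 genes past adjusted p 0.05 in the 9 libraries, in those libraries, in all 12 libraries and for fulvestrant with FIIN-3 over FIIN-3 in 12 other libraries (1 clone-named transcript was not tested there). All points of the 25 lower genes lie left of 0, and CXCL12 and OLFM1 lie farther left with FIIN-3.

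Whether the response itself differed with FIIN-3 was tested as an interaction, where a positive value means that a gene fell less without FIIN-3. Over all libraries no gene of 13500 passed in edgeR, 360 (2.67%) had an unadjusted p under 0.05, and DESeq2 and limma called 0. Without the libraries of low MT-RNR2, 3 genes of 13818 passed (0.0217%): OLFM1 (1.81 ± 0.30, adjusted p = 0.0072), CXCL12 (1.54 ± 0.29, adjusted p = 0.0476) and WDHD1 (1.65 ± 0.32, adjusted p = 0.0476). Leaving out FIIN-3 replicate 1 as well, OLFM1 passed (1.74 ± 0.29, adjusted p = 0.0105), while CXCL12 (adjusted p = 0.0814) and WDHD1 (adjusted p = 0.0898) did not. With the block, OLFM1 passed (1.87 ± 0.27, adjusted p = 0.00116) and CXCL12 did not (1.40 ± 0.31, adjusted p = 0.259).

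The levels behind this differ between the 2 genes. Medians are given here without the libraries of low MT-RNR2. OLFM1 without fulvestrant was at a median of 25.7 CPM with FIIN-3 and 24.5 CPM with DMSO. With fulvestrant it was at 3.25 CPM with FIIN-3 and 9.18 CPM without it. CXCL12 without fulvestrant was at 48.2 CPM with FIIN-3 and 24.8 CPM with DMSO, and with fulvestrant at 3.40 CPM with FIIN-3 and 6.18 CPM without it. Their ranges overlap for CXCL12 with fulvestrant and for OLFM1 without it, and do not for the other 2 pairs. The share of all genes without overlap is not given here. Libraries with FIIN-3 have title numbers apart from those without it, so in these levels FIIN-3 cannot be told apart from that difference. For FGF2 no gene passed (0 of 13321 in edgeR, with 0.886% at an unadjusted p under 0.05; DESeq2 and limma called 0), nor in the 9 libraries.

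Set against other lines, the response of the N550K line had fewer calls than that of the control lines. In the control lines, which have 24 libraries, 0.952% of 13442 genes fell and 0.565% rose, together 1.52%, and without 1 library of low MT-RNR2 1.71% fell and 0.926% rose. In the wild-type FGFR2 line 9 of 12473 fell (0.0722%) and 0 rose, and without libraries of low MT-RNR2 41 fell and 2 rose. In K660N 28 of 12707 fell (0.22%) and 4 rose (0.0315%). Counts of calls depend on the number of libraries, so they do not rank the lines.

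Many of the same genes fell elsewhere. Of the 25 genes that fell in the 9 N550K libraries, 19 also fell in the control lines (76% of the 25, and 14.8% of all that fell there) and 19 in K660N (76%, and 67.9% of the 28). In wild-type FGFR2 18 fell without the libraries of low MT-RNR2 (72%, and 43.9% of the 41), against 7 over all its libraries (28%, and 77.8% of the 9). In the control lines without the library of low MT-RNR2 it was 20 (80%, and 8.58%). MYC fell in the control lines (-0.85 ± 0.16, adjusted p = 0.00182) and in K660N (-1.21 ± 0.20, adjusted p = 0.00458). Of the genes raised by receptor loss, 8 of 16 rose in the control lines, among them FBXO32 (1.05 ± 0.13, adjusted p = 4.44e-06), and 1 of 14 rose in K660N. PGR (-0.64 ± 0.16, adjusted p = 0.0265) and ESR1 (-0.49 ± 0.13, adjusted p = 0.0495) also passed in the control lines.

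The difference between lines was tested directly. Between N550K and the control lines no gene of 13907 passed over all libraries in edgeR, with 2.34% at an unadjusted p under 0.05, 1 call by DESeq2, TNRC18P1, and 0 by limma. Without libraries of low MT-RNR2, OLFM1 alone of 14220 passed (0.00703%), with a positive value meaning that it fell less in N550K (1.72 ± 0.29, adjusted p = 0.0103; with the block 1.79 ± 0.24, adjusted p = 0.000151). In these libraries the fold change of OLFM1 was -1.15 ± 0.20 in N550K and -2.86 ± 0.16 in the control lines. CXCL12 did not pass (1.30 ± 0.27, adjusted p = 0.188), with -2.20 ± 0.20 in N550K and -3.50 ± 0.15 in the control lines, nor did MYC (-0.93 ± 0.26, adjusted p = 0.857), with -1.87 ± 0.20 in N550K and -0.93 ± 0.13 in the control lines.

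Against wild-type FGFR2 no gene of 13420 passed (edgeR; 1.18% at an unadjusted p under 0.05; DESeq2 and limma 0), nor without libraries of low MT-RNR2, where the block gave 6 calls: ACOX2, PEG10, OLFM1 and IFIT1 higher and TMED9 and FKBP10 lower. In that blocked fit fulvestrant replicate 4 of either line had no DMSO library in its block. Against K660N no gene of 13529 passed (edgeR; 1.01% at an unadjusted p under 0.05; DESeq2 and limma 0). FBXO32, which rose in the control lines, differed between N550K and those lines by -0.51 ± 0.22 over all libraries without passing (adjusted p = 1).

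Levels without fulvestrant were uneven before any drug effect. Levels in this paragraph are over all libraries, with those of low MT-RNR2. The median of ESR1 in DMSO libraries was 27.2 CPM in N550K, 48.4 CPM in K660N, 58.6 CPM in wild-type FGFR2, 90.9 CPM in GFP and 110 CPM in parental cells. CXCL12 was lowest in N550K as well, with 21.9 CPM in N550K, 41.8 CPM in K660N, 56.02 CPM in wild-type FGFR2, 69.5 CPM in GFP and 67.8 CPM in parental cells. With fulvestrant the medians of CXCL12 were closer, at 5.45 CPM in N550K, 10.1 CPM in K660N, 6.96 CPM in wild-type FGFR2, 5.36 CPM in GFP and 6.24 CPM in parental cells, and all these ranges overlap. SERPINA6 with DMSO was at 99.3 to 290 CPM in N550K and at 168.4 to 251.5 CPM in K660N, below the 387 to 793 CPM of GFP and the 416 to 1067 CPM of parental cells, and its fold change over all libraries was -1.68 ± 0.39 in N550K and -1.67 ± 0.17 in the control lines (interaction 0.05 ± 0.36, adjusted p = 1). Without the DMSO libraries of low MT-RNR2, the N550K medians were 32.3 CPM for ESR1 and 24.8 CPM for CXCL12. SERPINA6 was then at 99.3 to 229.6 CPM in N550K with DMSO. Differences between lines at DMSO were not tested here.

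**Figure D5:**
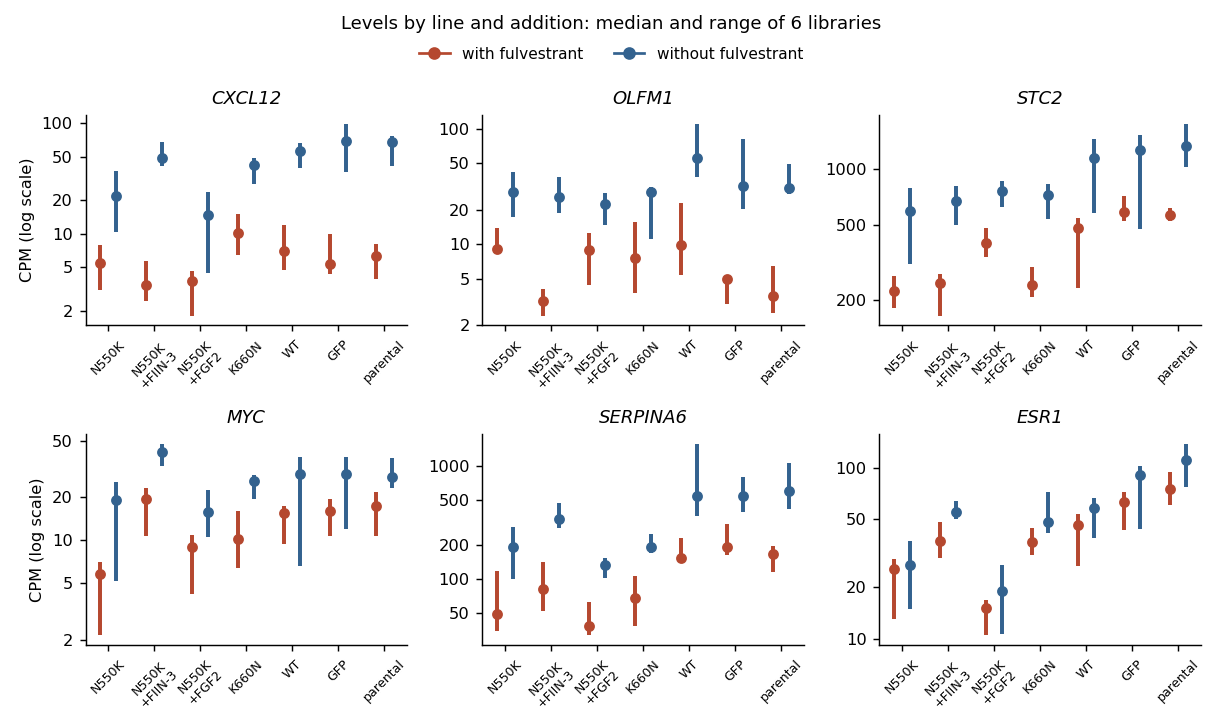
Level (CPM, log axis) of 6 genes with and without fulvestrant, by line and by addition of FIIN-3 or FGF2 in the N550K line; points are medians and bars the range of 6 libraries. CXCL12 with fulvestrant has overlapping ranges in all lines, and ESR1 is lower in N550K than in GFP and parental cells with and without fulvestrant.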

How the data were processed

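The authors sequenced SMART-Seq2 libraries and, per the submitters' processing notes, aligned reads with STAR to hg19; which read counter, annotation and versions they used is not given in the sources used here. One deposited table holds read counts per gene (54592 genes, not normalized). The other holds log2 values, which by their sums are log2(TPM + 1) as deposited, so the planned log2(value + 1) was not taken again. In each, 84 columns were used and 563 were not. Counts were tested with edgeR 4.0.16 in R 4.3.3 (TMM, filterByExpr with a minimum count of 10, quasi-likelihood F test, Benjamini-Hochberg over all genes tested, threshold 0.05); fold changes are given with SE. Printed CPM are scaled over the 84 libraries together. Interactions used treatment by line or by addition, with line as a factor. Alternatives were removal of libraries with MT-RNR2 under 5 percent, DESeq2 1.42.0 size factors and Wald test, no filter, a minimum count of 50, mitochondrial genes left out, limma 3.58.1 on the log2 table, a block and leaving out each library, and, chosen after seeing the data, each of the 9 libraries left without low MT-RNR2 and FIIN-3 replicate 1. The labels pair no libraries, and the block joins 3 pairs of neighbouring title numbers per group. Without libraries of low MT-RNR2 the block of N550K fulvestrant replicate 4 holds no DMSO library. That library then does not enter the blocked estimates of the main comparison and the interactions. Deviations from group means correlated within every pair over 12 libraries (0.669, 0.73 and 0.856), computed after both fits' counts had been seen, and over 9 libraries by 0.089 and 0.059. Named genes are FGFR2, FGFR1, ESR1 and MT-RNR2, up to 20 per direction of the main comparison, 8 per list and 5 per direction elsewhere. The lists (16, with 321 genes) and the groups were chosen with earlier results of these data known. The edgeR step was tested on simulated data.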

Additional observations from a re-analysis of the deposited data

Results flagged for a closer look

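In the fulvestrant and DMSO groups of 6 libraries, 10 of 54 checks of a gene or measure found a library far from the others by Dixon's criterion. Chance flags about 1 check in 20, but these are repeated checks of the same 12 libraries, so they are not independent. All but 1 were in fulvestrant replicate 3, which is among the libraries with low MT-RNR2. Its MT-RNR2 share was 1.59%, against 12.7% or more in the other fulvestrant libraries, and its ESR1 was the lowest at 13 CPM. It was highest for SERPINA6 (117.8 CPM), NPM3 (198.9 CPM), LINC00992 (78.8 CPM), CARD19 (43.02 CPM), SNHG15 (140.7 CPM), TMED9 (1417 CPM) and RPL36A (272.8 CPM). DMSO replicate 4 was lowest for CYP2T1P (4.20 CPM, against 9.62 CPM or more in the other DMSO libraries).

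Tests of a difference between responses by edgeR without a block passed for 3 genes, in each case without the libraries of low MT-RNR2. OLFM1 fell less in N550K than in the control lines by 1.72 on the log2 scale. OLFM1, CXCL12 and WDHD1 differed between fulvestrant without and with FIIN-3 by 1.81, 1.54 and 1.65. With other settings TNRC18P1 passed against the control lines (DESeq2, all libraries, adjusted p = 0.0238), and ACOX2, PEG10, IFIT1, OLFM1, TMED9 and FKBP10 passed against wild-type FGFR2 with the block and without the libraries of low MT-RNR2.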

How the results depend on the processing

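The count of genes in the main comparison was the most dependent result. It was 1 over 12 libraries, 27 without libraries of low MT-RNR2 and 72 there with the replicate block, to which fulvestrant replicate 4 does not contribute. The block over 12 libraries, the unfiltered table and DESeq2 size factors gave 1. DESeq2 gave 12, a minimum count of 50 gave 2, and limma and the fit without mitochondrial genes gave 0. Leaving out 1 of the 12 libraries in turn gave 0 to 3, and leaving out 1 of the 9 gave calls for 0.114% to 1.18% of genes, against 0.208%. Fulvestrant on FIIN-3 gave 59 calls, and 28 by limma. Fulvestrant on FGF2 gave 4, and 13 by DESeq2, 2 by limma, 28 without a filter and 8 with the replicate block. Against the control lines the interaction gave 0, and 1 by DESeq2, 1 without low MT-RNR2 and 1 there with the block. Against wild-type FGFR2 it gave 0, and 6 without low MT-RNR2 with the block. With and without FIIN-3 it gave 0, and 3 without low MT-RNR2, 1 there with the block and 1 there without FIIN-3 replicate 1. The median of all genes in the main comparison was 0.229 by limma, against 0.018 by edgeR, so signs by limma are read against that median. ESR1 turned to 0.07 by limma, from -0.19. FGFR1, at -0.01, turned to 0.15 by limma, 0.02 unfiltered, 0.01 with the block, and ran over -0.26 to 0.13 as 1 of the 12 or 9 libraries was left out in turn. Over 25 named genes and 748 alternative values, 534 kept direction and side of the threshold, 13 lost it, 7 reversed and the rest gained it; of 1437 list values 56 moved. In the 9 libraries the block added FBXO32 and SREBF1 to the list calls. It also raised shares at an unadjusted p under 0.05, over all libraries, to 8.16% in the main comparison, and in the interactions to 5.07% (FIIN-3), 2.77% (FGF2), 2.65% (K660N), 4.31% (control lines) and 1.85% (wild-type FGFR2). The causes were not tested. With 4 to 6 libraries a group, small changes are not detectable.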

Other observations

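FGD3, an activator of CDC42-type GTPases, SUSD3 and CARD19, a mitochondrial CARD protein, are the 3 protein-coding genes in 165.8 kb of chromosome 9 (92947523 to 93113283, RefSeq GRCh38.p14), and all 3 fell in the 9 libraries. FGD3 was at 2.60 to 3.63 CPM with fulvestrant and at 7.73 to 10.9 CPM with DMSO (-1.67 ± 0.24, edgeR adjusted p = 0.000553). CARD19 was at 10.1 to 16.4 CPM with fulvestrant and at 15.2 to 39.5 CPM with DMSO, with overlap (-1.02 ± 0.22, adjusted p = 0.0426). The region was noticed after these values were seen, and no test of neighbourhood was run.

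EGLN2, a prolyl hydroxylase of hypoxia signalling, ends at base 40808434 of chromosome 19 and the pseudogene CYP2T1P begins at 40808443, so reads of the pair may not be separable. EGLN2 was at 77.6 to 103.4 CPM with fulvestrant and at 105.3 to 143.5 CPM with DMSO, and CYP2T1P at 2.63 to 4.95 CPM with fulvestrant and at 9.62 to 12.6 CPM with DMSO. CXCR4, the receptor of CXCL12, was at 10.9 to 13.4 CPM with fulvestrant and at 5.37 to 14.1 CPM with DMSO over 12 libraries, and did not pass (0.46 ± 0.25, adjusted p = 0.845).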
